A study of Rattus norvegicus with 60 samples.

Results

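Cyproterone acetate (CPA) is a steroid that blocks the androgen receptor and acts as a progestin. It makes the rat liver grow and promotes liver tumours in rodents. The study grouped it with nongenotoxic carcinogens. How the hepatocyte response to it changed between 24 h and 6 d was examined as the difference of differences: CPA minus corn oil at 6 d, minus CPA minus corn oil at 24 h. This quantity is called the interaction here. It used 14 of the 60 arrays of the series and was tested in 14217 genes. Each gene was represented by its brightest probe set, judged by the mean of the 60 arrays.

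All 14 arrays carried RNA of hepatocytes, the parenchymal cells of the liver, from female Han-Wistar rats, 8 weeks old. The groups were corn oil at 24 h (5 arrays), CPA at 24 h (3), corn oil at 6 d (3) and CPA at 6 d (3). CPA was gavaged at 100 mg/kg, on a single day for the 24 h group and on 6 consecutive days for the 6 d group, and corn oil at 10 ml/kg was the vehicle. Neither the time from the last dose to cell isolation nor whether each array was a separate animal was stated, so p-values measure the spread between these arrays, which may be technical. The remaining hepatocyte arrays (phenobarbital, water and a further corn oil group coded CO_Co) helped only to estimate that spread, and 14 matching arrays of mesenchymal liver cells served for comparison.

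In a resting liver nearly all hepatocytes are out of the cell cycle. A mitogen such as CPA acts largely through the pregnane X receptor, a nuclear receptor that also switches on drug-metabolising enzymes, and drives hepatocytes through G1 into DNA synthesis and mitosis. E2F transcription factors switch on replication genes before S phase, and a later programme read through CCAAT boxes and the cell cycle homology region (CHR) serves mitosis. In rats, a separate set of liver genes differs between the sexes under the pattern of growth hormone release.

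The deposited values are on the log2 scale, where a difference of 1 is a doubling, and ran from 0.74 to 13.87 in these arrays. Array medians ran from 3.25 to 3.34, and arrays of a group correlated with r from 0.985 to 0.993 across genes, which are not independent replicates. One library stood apart: corn oil 6 d replicate 1. It correlated with the mean of the CPA 24 h arrays at r = 0.979, against 0.965 for the other corn oil 6 d arrays. Mki67, a marker of cycling cells, was at 4.95 in it and at 2.71 and 2.49 in its partners. Without this array 76 of the 92 interaction calls among the 105 genes named here were kept, and all 92 kept their sign. The calls of Akr1b7, Ccnd1, Ccne1, Cdc45, Cybb, Cyp3a9, Fen1, Gadd45b, Gins3, Hspa5, Mcm4, Pcna, Pole, Rfc2, Tyrobp and Vim were lost. Of the 40 gene lists, 7 had a 6 d count that moved by more than 1 without it, by 3 at most. The files used here hold no detection calls, so levels near the array medians may be background, and differences from such levels are given in log2 units and may understate the change. Albumin was at 13.77 or higher in every array, near the top of the scale. The mean of 19 hepatocyte markers was 11.64 ± 0.06 (SD, n = 5) in corn oil and 11.34 ± 0.09 (n = 3) after CPA at 24 h, and 11.64 ± 0.09 and 11.26 ± 0.09 (n = 3 each) at 6 d. A two-sided exact permutation test of the 24 h means gave p = 0.0179, the smallest that 5 against 3 arrays can give, and 3 against 3 cannot go below 0.1.

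At 24 h CPA changed 4963 genes (34.9%), 3266 of them higher (23.0%) and 1697 lower (11.9%), in limma at an adjusted p under 0.05. At 6 d it changed 3548 (25%), 2181 higher (15.3%) and 1367 lower (9.62%), or 3469 without corn oil 6 d replicate 1. The interaction was called in 2187 genes (15.4%), 1003 with a higher effect at 6 d (7.05%) and 1184 with a lower one (8.33%). Without that array it was called in 1657 genes, 1577 of them among the 2187. The split between directions depended on the scale: 45.9% of calls were higher in the deposited values, 34.2% of 2495 calls after each array was centred on its median, and 55.5% of 1883 after quantile normalization. Centring on array medians moved the median interaction of all genes from -0.03 to -0.12.

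The change with time lay mostly in the treated arrays. Between CPA at 24 h and CPA at 6 d, 3682 genes differed (25.9%), and between the corn oil groups limma called 0 of 14217 at the adjusted threshold, with 740 at an unadjusted p under 0.05. With array weights that count was 10. Of the 2187 interaction genes, 2076 (94.9%) were also called between the CPA groups, and in 2147 (98.2%) the CPA change was larger than the corn oil change. These genes were chosen for the interaction, of which the CPA change is one term, so these counts describe them and test nothing.

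The genes were sorted by their calls at the 2 times and by the interaction. Transient genes were called at 24 h, not at 6 d, with an opposing interaction: 700 were higher at 24 h (4.92% of genes) and 321 lower (2.26%). Attenuated genes, still called the same way at 6 d but less so, numbered 81 higher (0.570%) and 38 lower (0.267%). Sustained genes, called the same way at both times with no interaction call, numbered 1135 higher (7.98%) and 560 lower (3.94%). A missed threshold does not show equal effects. In 1251 of these 1695 genes the 95% interval of the interaction lay within 1 log2 unit of 0, and 245 had an unadjusted p under 0.05.

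Growing genes, called the same way at both times and further from 0 at 6 d, numbered 73 higher (0.513%) and 40 lower (0.281%). Late genes were called at 6 d and not at 24 h, with an interaction call in the direction of the 6 d effect: 449 rose (3.16%) and 238 fell (1.67%). A further 168 genes changed in opposite directions, 86 of them higher at 24 h and lower at 6 d (0.605%), 82 the reverse (0.577%). Classes were defined by these same calls, so their effects describe them and test nothing. The transient higher genes had a median effect of 0.75 at 24 h and -0.05 at 6 d, and the late higher genes -0.10 and 1.09. Without corn oil 6 d replicate 1, 423 of the 700 transient higher genes (60.4%) and 356 of the 449 late higher genes (79.3%) kept their class, and every gene of both classes kept the sign of its interaction. The transient higher class fell to 407 genes without CPA 24 h replicate 2. The attenuated class was the least stable: its 119 genes became 65 without corn oil 6 d replicate 1, 74 without CPA 24 h replicate 2, 75 and 63 without corn oil 6 d replicates 2 and 3, and 73, 58 and 70 without CPA 6 d replicates 1, 2 and 3. Growing genes became 75 without CPA 24 h replicate 1, and opposed genes 109 without CPA 6 d replicate 2. Among single directions, the 238 late lower genes became 146 without CPA 6 d replicate 2. The 40 growing lower genes became 25, 63 and 24 without CPA 24 h replicate 3 and CPA 6 d replicates 1 and 2, and the 73 growing higher genes became 48 without CPA 24 h replicate 1. The 86 opposed genes that were higher at 24 h became 53, 54, 57 and 48 without CPA 24 h replicate 2, corn oil 6 d replicates 1 and 3 and CPA 6 d replicate 2.

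**Figure D1:**
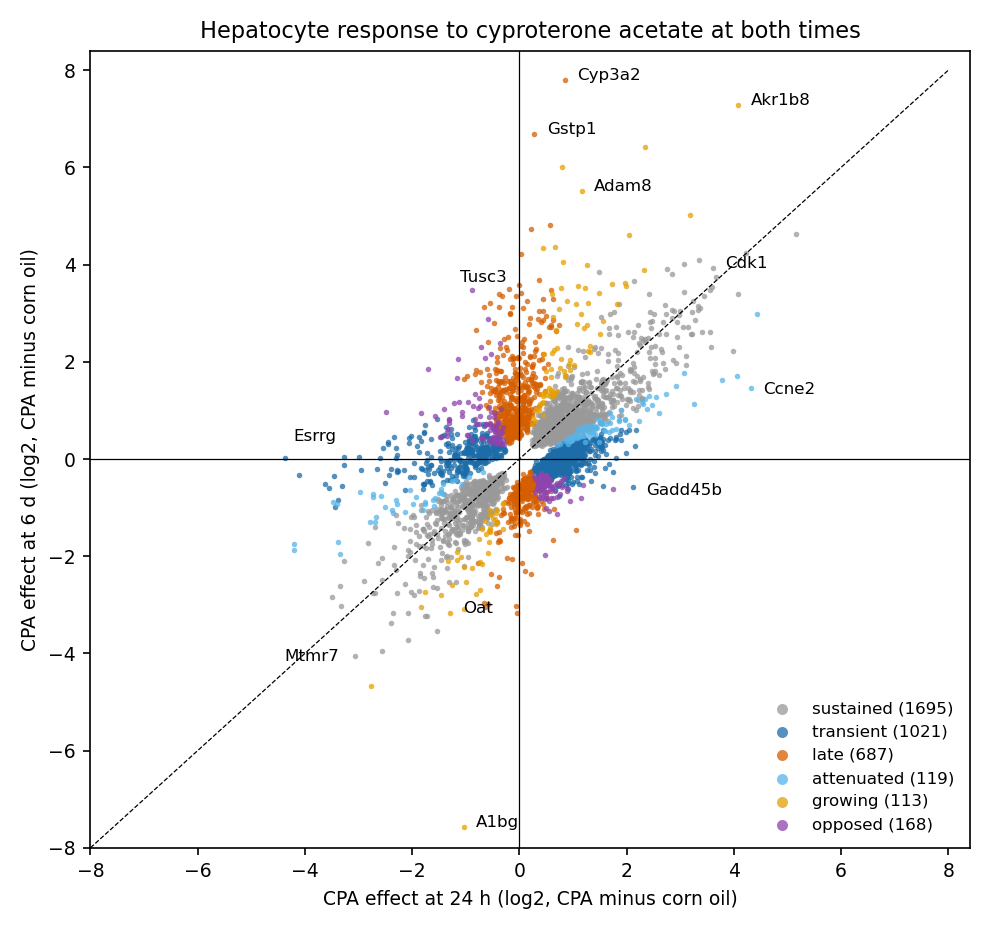
Effect of CPA against corn oil at 24 h (x axis) and at 6 d (y axis), in log2 units, with 1 point per classed gene, coloured by class. Those of the 14217 genes that fell in no class are not drawn, so the empty centre reflects that choice. Transient genes lie along the x axis, late genes along the y axis, and sustained genes along the diagonal.

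Most genes of DNA replication and of mitosis were higher at both times, and some replication genes were called for a smaller effect at 6 d. Of 37 measured replication genes, 36 were higher at 24 h and 28 at 6 d, none was lower, and the median effect went from 1.91 to 1.17, where the median of all genes was -0.01 at both times and 23.0% and 15.3% of all genes were higher. The interaction was called in 11 (4 without corn oil 6 d replicate 1), all lower, against 8.33% of all genes. Of these 37 genes 21 were sustained. Of 23 genes of G1/S control, 17 were higher at 24 h and 11 at 6 d, and 4 had a lower interaction (2 without corn oil 6 d replicate 1). Of 46 mitosis genes, 44 were higher at 24 h and 41 at 6 d, with medians of 2.42 and 2.53. Only Ccnb1 and Birc5 of these 46 had an interaction call, both higher. With each array left out in turn 0 to 3 were called higher and 0 to 1 lower. With the Kupffer and endothelial marker mean as a covariate 0 were called.

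Short motifs of the cell cycle programmes were searched on both strands in the 250 bases before the RefSeq start of each gene (GRCr8), which was at hand for 11733 of the genes tested. The E2F motif (TTTGGCGC, TTTCCCGC, TTTCGCGC or TTTGCCGC) was in 9 of 34 replication promoters (26.5%), in 1 of 40 mitosis promoters (2.5%) and in 2.94% of the 11733. CCAAT was in 31 of the 40 mitosis promoters (77.5%) and in 35.1% of all, and the CHR letters TTTGAA were in 20 of the 40 (50%) and in 10.9% of all. Among 599 transient higher genes 37 held an E2F match (6.18%), among 68 attenuated higher genes 5 (7.35%), among 991 sustained higher genes 52 (5.25%) and among 350 late higher genes 4 (1.14%). These counts are descriptions: a match is not a bound site. Examples follow, 160 bases up to the start on the strand of the gene. Only matches to the motifs named for each gene are in capitals, in either orientation. Matches to the other motifs searched stay in lower case, so lower case does not mean that a gene lacks them. Cdk1 also holds the E2F letters TTTCGCGC, and Gins3 also holds CCAAT (reversed) and TTTGAA. The first are Gins3 and Mcm2, which encode parts of the replicative helicase, with E2F matches. Cdk1 and Prc1 come next, with CCAAT and CHR matches.
Gins3: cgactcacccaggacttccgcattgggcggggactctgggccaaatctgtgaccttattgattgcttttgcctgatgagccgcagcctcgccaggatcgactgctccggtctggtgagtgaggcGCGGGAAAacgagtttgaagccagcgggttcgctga
Mcm2: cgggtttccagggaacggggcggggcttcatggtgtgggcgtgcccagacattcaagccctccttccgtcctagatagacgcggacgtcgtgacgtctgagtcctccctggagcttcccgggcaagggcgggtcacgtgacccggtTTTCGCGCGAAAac
Cdk1: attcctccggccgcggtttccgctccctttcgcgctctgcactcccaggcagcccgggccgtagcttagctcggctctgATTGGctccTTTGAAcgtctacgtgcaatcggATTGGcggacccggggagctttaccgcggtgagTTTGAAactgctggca
Prc1: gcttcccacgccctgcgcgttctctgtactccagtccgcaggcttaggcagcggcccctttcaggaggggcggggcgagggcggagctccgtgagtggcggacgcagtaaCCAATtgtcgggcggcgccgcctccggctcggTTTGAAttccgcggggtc
They lie at chr19:9434680-9434839 (- strand), chr4:122918095-122918254 (- strand), chr20:19265133-19265292 (+ strand) and chr1:143659321-143659480 (+ strand). The Gins3 match began 36 bases before the start and the overlapping Mcm2 matches 14 and 10 bases before it. In Cdk1 the CCAAT matches began 81 and 49 bases and the CHR matches 72 and 16 bases before the start, and in Prc1 50 and 18 bases.

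E2f1 (probe set 1382511_at), an E2F factor itself, was at 4.48, 3.67, 4.52, 3.60 and 3.67 in corn oil and at 6.97, 6.02 and 5.53 after CPA at 24 h. After 6 d it was at 4.61, 4.10 and 3.87 in corn oil and at 4.82, 4.76 and 4.81 after CPA. The groups did not overlap at either time, but the gap at 6 d was small. Over all genes, 37.1% had no overlap of the groups at 24 h and 42.4% at 6 d. Its effect was 2.18 at 24 h (SE 0.27) and 0.61 at 6 d (SE 0.30, limma adjusted p = 0.147), with an interaction of -1.58 (SE 0.40, adjusted p = 0.00782). Without corn oil 6 d replicate 1 these were 0.81 at 6 d and -1.37 (adjusted p = 0.0328).

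Ccne2 (probe set 1374359_at), cyclin E2, which partners Cdk2 at the entry to S phase, was at 3.03, 3.25, 3.48, 2.56 and 2.99 in corn oil and at 8.13, 7.02 and 6.98 after CPA at 24 h. At 6 d corn oil gave 5.68, 2.94 and 2.88 and CPA 5.05, 5.03 and 5.78. All CPA arrays at 24 h were far above corn oil, whereas at 6 d the groups overlapped through corn oil replicate 1, the highest of its group. The effect was 4.31 (SE 0.43) at 24 h and 1.46 (SE 0.48) at 6 d, with an interaction of -2.85 (SE 0.64, limma adjusted p = 0.00331). Without that array the effect at 6 d was 2.38 and the interaction -1.93 (adjusted p = 0.00536). Ccne1 went from 2.74 to 1.34 and was no longer called for the interaction without that array (adjusted p = 0.0649). Ccnd1, cyclin D1, the growth factor sensor of G1, went from 1.90 to 0.60 (interaction adjusted p = 0.0379). It lost the call without corn oil 6 d replicate 1 (0.097), and over the 14 arrays left out in turn its adjusted p ran from 0.0164 to 0.155, with the call lost for 6 of them.

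Among replication genes, Mcm3 (probe set 1372406_at), a subunit of the helicase that unwinds DNA, was at 3.79, 3.56, 3.48, 3.10 and 2.99 in corn oil and at 6.54, 5.14 and 5.17 after CPA at 24 h. In the 6 d arrays it was at 4.16, 3.53 and 3.79 in corn oil and at 4.42, 4.57 and 4.81 after CPA. CPA arrays were above corn oil at both times, by less at 6 d: the effect went from 2.23 to 0.77, with an interaction of -1.46 (SE 0.35, limma adjusted p = 0.00525), or -1.29 (0.0225) without corn oil 6 d replicate 1. Cdt1, which licenses origins, went from 3.78 to 1.63 and Chaf1a, of the chromatin assembly factor that follows the fork, from 2.61 to 0.95. Pcna, the sliding clamp of the polymerases, went from 2.28 to 1.17. Mcm4, Rfc2 and Fen1 were also attenuated, and Orc1, Gins3, Cdc45 and Pole were transient. Of these genes Pcna, Mcm4, Rfc2, Fen1, Gins3, Cdc45 and Pole had no interaction call without corn oil 6 d replicate 1. Mcm2, shown above, went from 2.40 to 1.56 with no interaction call (-0.84, adjusted p = 0.277). The interaction was below 0 in 35 of the 37 genes, but the number called hung on single arrays: 4 without corn oil 6 d replicate 1, CPA 24 h replicate 1 or CPA 6 d replicate 2, 7 without corn oil 24 h replicate 4 or 5 or CPA 6 d replicate 1, and up to 16 without another. Of 23 repair and checkpoint genes 5 had a lower interaction, against 8.33% of all genes. Among them was Exo1, a nuclease of mismatch repair and recombination (2.55 to 1.27). The 5 became 3 without corn oil 24 h replicate 4, CPA 24 h replicate 1, corn oil 6 d replicate 1 or CPA 6 d replicate 3. Without CPA 6 d replicate 1 they became 2. Such counts of 23 are near the share of all genes.

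Cdk1 (probe set 1367776_at), the kinase that starts mitosis, was at 4.67, 3.43, 3.56, 3.40 and 3.08 in corn oil and at 8.4, 7 and 6.32 after CPA at 24 h. At 6 d corn oil gave 5.18, 3.38 and 2.79 and CPA 7.60, 7.57 and 7.98. The groups did not overlap at either time, and the 6 d CPA arrays lay within the range of the 24 h ones. The effects were 3.61 (SE 0.49) and 3.93 (SE 0.54), and the interaction was 0.32 with a 95% interval from -1.18 to 1.83 (limma adjusted p = 0.84). Without corn oil 6 d replicate 1 the 6 d effect was 4.63 and the interaction 1.02 (adjusted p = 0.398). Ccna2, cyclin A2, was higher by 4.23 at both times. Mki67 went from 3.40 to 2.61, with an interaction interval from -2.24 to 0.66, and its 6 d effect was 3.39 without that array. Mybl1, a Myb factor of the S and G2 phases, was higher by 5.16 and 4.63, one of the largest sustained rises. Ccnb1, cyclin B1, went from 2.32 to 3.89, and its interaction (1.58, adjusted p = 0.0488) lost the call without 9 of the 14 arrays, although without corn oil 6 d replicate 1 it was 2.01 (adjusted p = 0.0141).

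Genes that build ribosomes rose at 24 h and had come down by 6 d. All 36 measured genes of ribosome biogenesis were higher at 24 h, 17 were at 6 d, and the median effect went from 1.06 to 0.41. The interaction was called in 22 of the 36, all lower, against 8.33% of all genes, and was below 0 in 35. It was called in 15 without corn oil 6 d replicate 1 and in 14 without CPA 24 h replicate 2 or corn oil 6 d replicate 3. The 17 calls at 6 d became 11 without corn oil 6 d replicate 2, 10 without its replicate 3 and 10 without CPA 6 d replicate 3.

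Nolc1 (probe set 1368031_at), a nucleolar phosphoprotein that binds RNA polymerase I and small nucleolar particles, was at 5.44, 4.88, 5.31, 4.98 and 5.26 in corn oil and at 6.42, 6.48 and 6.06 after CPA at 24 h. By 6 d the level was 5.51, 5.10 and 5.30 in corn oil and 5.11, 5.11 and 5.31 after CPA. The rise at 24 h left no overlap, and at 6 d the groups lay on top of each other. The effect went from 1.15 to -0.12, with an interaction of -1.27 (SE 0.26, limma adjusted p = 0.00171), or -1.17 without corn oil 6 d replicate 1. Ddx21, a nucleolar RNA helicase, went from 1.53 to 0.26, Polr1a, the largest subunit of RNA polymerase I, from 0.93 to 0.12, and Ncl, nucleolin, from 0.99 to -0.09. Nop56, of the box C/D snoRNPs that methylate ribosomal RNA, was attenuated, from 1.98 to 0.82. Pprc1, a coactivator of respiratory genes, was outside the list and went from 2.17 to 0.28.

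The E-box CACGTG, the letters bound by Myc, was in 7 of 32 ribosome biogenesis promoters (21.9%) and in 7.82% of the 11733. It is in capitals in the promoters of Gnl3 (nucleostemin, 0.59 at 24 h and -0.34 at 6 d) and Ltv1 (an assembly factor of the small subunit, 0.99 and 0.02), which are shown as transient members of the list.
Gnl3: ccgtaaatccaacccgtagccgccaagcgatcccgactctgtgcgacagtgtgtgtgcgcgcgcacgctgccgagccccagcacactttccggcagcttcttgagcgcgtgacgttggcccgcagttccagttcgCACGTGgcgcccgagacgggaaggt
Ltv1: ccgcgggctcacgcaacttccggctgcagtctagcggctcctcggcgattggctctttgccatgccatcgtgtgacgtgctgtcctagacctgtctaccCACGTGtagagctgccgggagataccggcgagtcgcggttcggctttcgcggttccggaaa
They lie at chr16:6219783-6219942 (- strand) and chr1:9398558-9398717 (- strand), with the match 25 and 61 bases before the start.

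**Figure D2:**
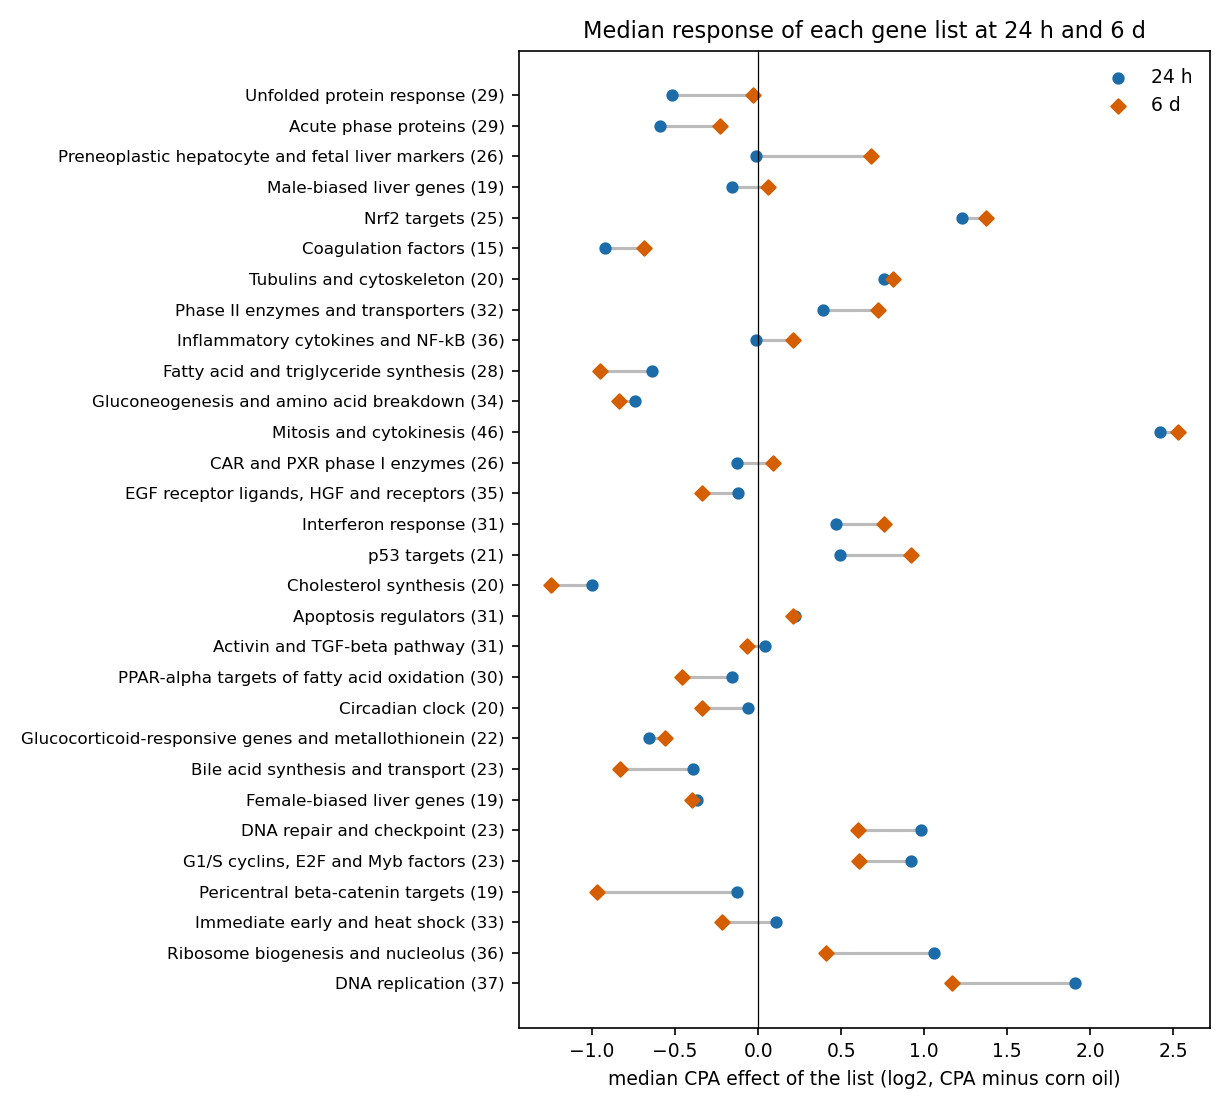
Median effect of CPA, in log2 units, over the measured genes of each list at 24 h and at 6 d. Ribosome biogenesis (1.06 to 0.41) and replication (1.91 to 1.17) moved toward 0, mitosis did not (2.42 and 2.53), and pericentral genes went from -0.13 to -0.97.

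Some p53 target genes were higher at both times. Of 21, 9 were higher at 24 h and 11 at 6 d, against 23.0% and 15.3% of all genes, and 2 had an interaction call (Perp and Apaf1), against 15.4% of all genes. Cdkn1a (probe set 1388674_at), the p21 inhibitor of cyclin-dependent kinases, was at 5.13, 4.93, 5.03, 4.62 and 4.33 in corn oil and at 8.11, 8.09 and 6.48 after CPA at 24 h. On the 6 d arrays it read 5.58, 4.83 and 4.66 in corn oil and 8.94, 8.90 and 8.95 after CPA. It was above corn oil in every CPA array at both times, by 2.76 (SE 0.34) and 3.90 (SE 0.38), and the interaction of 1.15 was not called (adjusted p = 0.137). Mdm2, the ligase that degrades p53, was higher by 2.73 and 2.58. Perp and Apaf1, both tied to cell death, went from 0.06 to 1 and from -0.16 to 1.07.

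Drug-metabolising phase I enzymes under the receptors CAR and PXR went both ways. Of 26, 6 were higher and 5 lower at 24 h, 8 higher and 7 lower at 6 d, and 4 had a higher and 3 a lower interaction. Over all genes 23.0% were higher and 11.9% lower at 24 h, and 15.3% and 9.62% at 6 d. The interaction was higher in 7.05% of all genes and lower in 8.33%. The 6 higher at 24 h were thus about the share of all genes. The medians were -0.13 at 24 h and 0.09 at 6 d. The classical pregnane X receptor target Cyp3a23-3a1 was high in all arrays: it was at 11, 11.47, 12.43, 11.66 and 11.03 in corn oil and at 12.95, 12.98 and 12.96 after CPA. The 6 d levels were 12.89, 11.16 and 11.42 in corn oil and 12.88, 13.16 and 13.14 after CPA. The only overlap came from corn oil 6 d replicate 1, which sat at the treated level. The effect was 1.44 at 24 h and 1.24 at 6 d, or 1.77 at 6 d without that array. Gstm3, a glutathione transferase, was higher by 3.44 and 3.35. Cyp3a and Gst genes have near-identical copies, so their probe sets may read each other's transcripts.

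Cholesterol synthesis genes were lower at both times. Of 20 cholesterol synthesis genes 19 were lower at 24 h and 18 at 6 d (15 without corn oil 6 d replicate 1), against 11.9% and 9.62% of all genes, with medians of -1 and -1.25. The interaction was called in Tm7sf2, Nsdhl and Sc5d, 3 enzymes of the late steps, all lower. Tm7sf2 was at 10.06, 9.73, 9.94, 9.97 and 10.01 in corn oil, and 8.99, 8.10 and 8.33 after CPA at 24 h. At 6 d it was at 9.42, 10.21 and 9.98 in corn oil and at 7.90, 6.73 and 6.59 after CPA. It was below corn oil in every CPA array, with effects of -1.47 and then -2.80 and an interaction of -1.33 (SE 0.34, limma adjusted p = 0.00859), or -1.55 without corn oil 6 d replicate 1. Cd36, a fatty acid transporter, had effects of -2.90 and -2.50, and Car3, a carbonic anhydrase of muscle, fat and liver, of -3.49 and -2.84.

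Gstp1 was among the late genes. Gstp1 (probe set 1388122_at) encodes the pi class glutathione transferase, scarce in normal rat hepatocytes and used as a marker of preneoplastic foci. It was at 4.86, 4.73, 5.32, 4.10 and 4.61 in corn oil and at 5.77, 4.60 and 4.64 after CPA at 24 h. At 6 d corn oil gave 5.12, 5.07 and 5.52 and CPA 11.75, 12.11 and 11.93. The 24 h groups overlapped, and the 6 d CPA arrays stood alone, 103-fold above corn oil. The effect was 0.28 (SE 0.38) at 24 h and 6.69 (SE 0.43) at 6 d, with an interaction of 6.41 (SE 0.58, limma adjusted p = 4.75e-08) that was 6.35 without corn oil 6 d replicate 1.

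Of 26 markers of preneoplastic hepatocytes and fetal liver, 8 were higher at 24 h and 15 at 6 d, against 23.0% and 15.3% of all genes, and 9 had a higher and 1 a lower interaction, against 7.05% and 8.33% of all genes. The list overlaps the Nrf2 list in Akr1b8, and some of its members are expressed by other liver cells. Anxa2 (probe set 1367584_at), a membrane-binding annexin, was at 3.55, 3.14, 3.94, 2.95 and 3.63 in corn oil and at 4.33, 4.47 and 3.21 after CPA at 24 h. After 6 d it was at 3.24, 3.43 and 3.29 in corn oil and at 7.88, 8.79 and 7.74 after CPA. The groups overlapped at 24 h, and at 6 d CPA was higher by 4.82, or by 4.78 without corn oil 6 d replicate 1. Its 6 d corn oil levels lay near the array medians. Anxa5 (-0.01 to 3.57), Lgals3, galectin 3 (-0.14 to 3.12), Vim, vimentin (-0.37 to 1.82) and Cd24 (0.02 to 1.28) were late as well, and Ggt1, gamma-glutamyl transferase, was growing (1.25 to 3.99). Afp, alpha-fetoprotein of the fetal liver, had no interaction call (0.54, adjusted p = 0.384). Outside the list, Sox4, a developmental transcription factor, went from 0.22 to 4.73, and Cyp1a1, the classical Ah receptor target, from 0.02 to 4.23.

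Of 25 Nrf2 target genes, which serve glutathione and redox defence, 17 were higher at 24 h and 20 at 6 d, against 23.0% and 15.3% of all genes, and 7 had a higher interaction, against 7.05%. Akr1b8 (probe set 1370902_at), an aldo-keto reductase, was at 4.22, 4.02, 3.67, 3.15 and 2.80 in corn oil and at 8.37, 7.4 and 7.20 after CPA at 24 h. In the 6 d arrays it was at 4.84, 3.63 and 2.61 in corn oil and at 10.36, 11.66 and 10.88 after CPA. The groups were apart at both times, by 4.09 and then 7.28, and the interaction was 3.19 (SE 0.57, limma adjusted p = 0.000408), or 3.77 without corn oil 6 d replicate 1.

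Gpx2 (probe set 1374070_at), a glutathione peroxidase, was at 2.15, 4.33, 4.38, 3.83 and 4.62 in corn oil and at 7.27, 7.33 and 3.99 after CPA at 24 h. By 6 d the level was 2.83, 2.01 and 1.95 in corn oil and 8.11, 9.45 and 8.51 after CPA. At 24 h CPA replicate 3 lay within the corn oil range, and at 6 d all CPA arrays were above. Its interaction was 4.09 (SE 0.90, limma adjusted p = 0.00281), or 4.37 without corn oil 6 d replicate 1. Gclc and Gclm, the subunits of the enzyme that limits glutathione synthesis, went from 1.51 to 2.56 and from 0.48 to 1.37. Abcc4, an export pump, went from -0.65 to 2.08.

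The antioxidant response element TGACNNNGC, the letters of Nrf2 binding, was in 4 of 22 Nrf2 list promoters (18.2%), in 53 of 350 late higher promoters (15.1%) and in 12.3% of the 11733. The late gene Gstp1 and the growing gene Gpx2 both hold a match, in capitals here.
Gstp1: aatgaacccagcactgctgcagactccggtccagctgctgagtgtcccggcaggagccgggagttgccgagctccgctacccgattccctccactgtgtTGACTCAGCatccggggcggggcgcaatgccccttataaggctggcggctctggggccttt
Gpx2: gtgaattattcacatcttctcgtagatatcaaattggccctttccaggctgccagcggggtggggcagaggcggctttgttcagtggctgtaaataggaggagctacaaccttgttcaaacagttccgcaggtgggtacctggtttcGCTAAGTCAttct
They lie at chr1:210769706-210769865 (- strand) and chr6:101230034-101230193 (- strand), with the match 61 and 13 bases before the start.

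**Figure D3:**
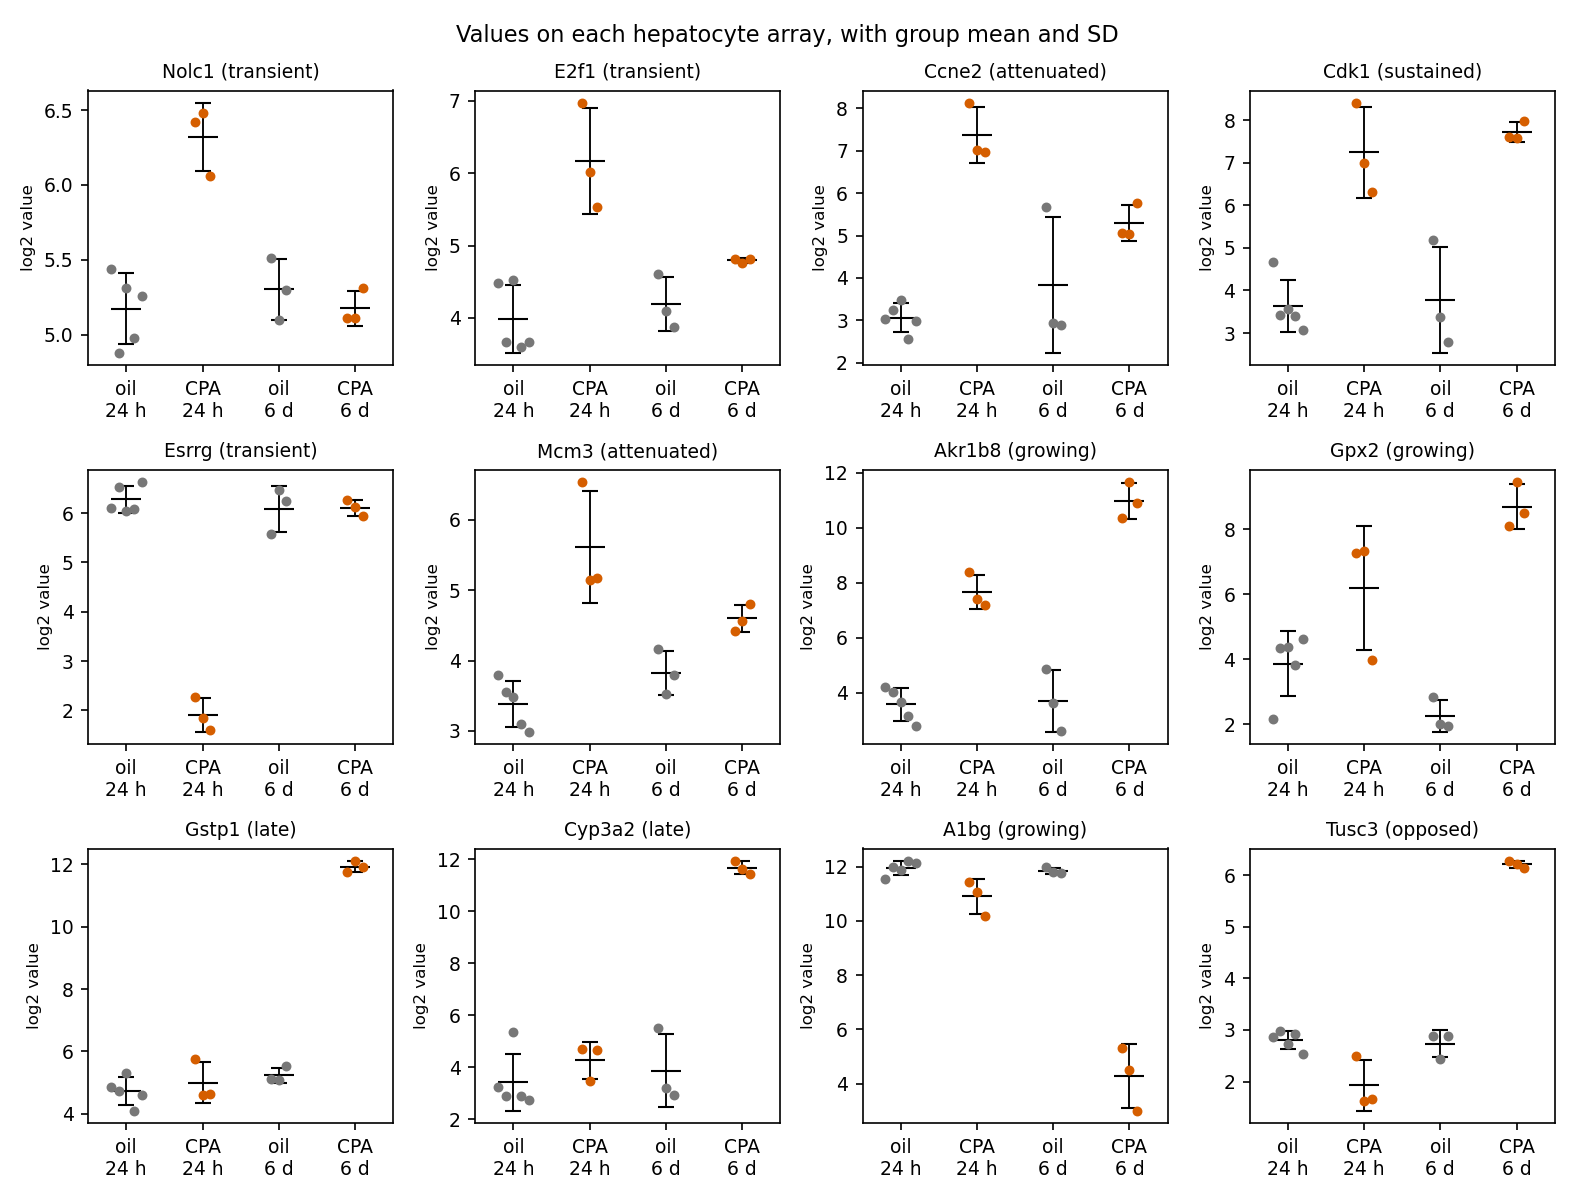
Log2 expression of 12 genes in each of the 14 arrays by group, with 1 point per array and a bar at the group mean. Nolc1, E2f1, Ccne2, Mcm3 and Esrrg returned toward corn oil at 6 d, Cdk1 held, and Gstp1, Cyp3a2, A1bg and Tusc3 moved chiefly at 6 d.

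Some genes that differ between the sexes in rat liver moved late in these female animals. Of 19 male-biased genes 5 had a higher interaction and 2 a lower one, and of 19 female-biased genes 7 had a lower interaction and 0 a higher one. Over all genes these shares were 7.05% higher and 8.33% lower. The 7 became 5 without corn oil 6 d replicate 1 and 4 without its replicate 3. At 24 h 1 male-biased gene was higher, against 23.0% of all genes, and at 6 d 7 were (6 without corn oil 6 d replicate 1), against 15.3%. Lower at 24 h were 4 male-biased and 7 female-biased genes, against 11.9% of all genes. At 6 d 3 and 9 were lower, against 9.62%. Among female-biased genes 1 was higher at 24 h and 0 at 6 d. The lists' medians stayed near 0 (-0.16 and 0.06 for male-biased, -0.37 and -0.40 for female-biased), so the shift lay in some members.

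Cyp3a2 (probe set 1370593_at), a male-predominant drug-metabolising enzyme, was at 3.23, 2.88, 5.34, 2.88 and 2.74 in corn oil and at 4.68, 3.45 and 4.66 after CPA at 24 h. On the 6 d arrays it read 5.49, 3.18 and 2.93 in corn oil and 11.93, 11.64 and 11.43 after CPA. It overlapped at 24 h and was higher by 7.80 at 6 d, with an interaction of 6.95 (SE 0.75, limma adjusted p = 7.27e-07). Most corn oil levels lay below the array medians. Without corn oil 6 d replicate 1, the highest of its group, the 6 d effect was 8.61 and the interaction 7.76. Cyp3a18 went from -0.20 to 2.52 and Sult1e1, estrogen sulfotransferase, from 0.60 to 2.76. Cyp2c13, a male-specific enzyme, went from -0.59 to 2.88. It was called lower at 24 h in the full set and not without corn oil 6 d replicate 1, where it was late. C6, a complement component, and Rup2 went down (-0.74 to -2.69 and 0.01 to -1.32). Cross-reading among Cyp3a and Cyp2c copies is possible here too.

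A1bg (probe set 1369509_a_at), a plasma protein made mainly by the female rat liver, was at 11.54, 12, 11.86, 12.20 and 12.12 in corn oil and at 11.43, 11.08 and 10.19 after CPA at 24 h. The 6 d levels were 11.97, 11.79 and 11.77 in corn oil and 5.32, 4.50 and 3.01 after CPA. CPA arrays were below corn oil at both times, narrowly at 24 h and far below at 6 d. The effect went from -1.04 (SE 0.34) to -7.57 (SE 0.37), with an interaction of -6.53 (SE 0.50, limma adjusted p = 4.42e-09), or -6.46 without corn oil 6 d replicate 1. Cux2 (probe set 1382202_at), a transcription factor of the female pattern, was at 6.14, 6.55, 5.86, 6.41 and 6.45 in corn oil and at 6.32, 5.93 and 6.41 after CPA at 24 h. At 6 d it was at 6.25, 6.6 and 6.44 in corn oil and at 3.09, 3.67 and 3.42 after CPA. It overlapped at 24 h and fell by 3.03 at 6 d, or by 3.12 without corn oil 6 d replicate 1. Cyp2c7, Cyp3a9, Akr1b7, Trim24 and Ghr, the growth hormone receptor (-1.33 to -2.11), were the other members with a lower interaction.

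Pericentral genes, expressed around the central vein under beta-catenin, were lower in greater number at 6 d. Of 19, 5 were lower at 24 h and 13 at 6 d (14 without corn oil 6 d replicate 1), against 11.9% and 9.62% of all genes. A lower interaction was called in 5, against 8.33% of all genes, though 1 of them, Ccnd1, did so by losing a rise. That count was 3 with the replicate block and without corn oil 24 h replicate 4, CPA 24 h replicate 2 or CPA 6 d replicate 2, and 2 without corn oil 6 d replicate 3. Oat (probe set 1367729_at), ornithine aminotransferase, was at 10.32, 9.27, 10.86, 10.52 and 10.80 in corn oil and at 10.05, 10.17 and 10.72 after CPA at 24 h. After 6 d it was at 10.16, 11.12 and 10.89 in corn oil and at 8.03, 7.60 and 7.01 after CPA. It overlapped at 24 h and fell by 3.17 at 6 d, and its interaction was -3.13 (SE 0.46, limma adjusted p = 5.13e-05), or -3.42 without corn oil 6 d replicate 1. Cyp2e1, the ethanol-inducible P450, went from -0.06 to -1.22, Lect2 from -0.41 to -1.30 and Axin2, a feedback inhibitor of the Wnt pathway, from 0.24 to -1. Other late genes were Slc27a5, the bile acid CoA ligase, which went from -0.65 to -2.97, and Fabp1, the liver fatty acid binding protein, which went from 0.01 to -1.23. Of 23 bile acid genes 3 had a lower interaction, as did 3 of 30 PPAR-alpha targets, and of 19 hepatocyte markers 2 had a higher and 4 a lower one. Over all genes the interaction was higher in 7.05% and lower in 8.33%. Apart from the 4 lower markers, these counts were near the shares of all genes.

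Many genes of protein folding in the endoplasmic reticulum were lower at 24 h, and fewer were at 6 d. Of 29 genes of the unfolded protein response 19 were lower at 24 h and 7 at 6 d, against 11.9% and 9.62% of all genes, and the median went from -0.52 to -0.03. The interaction was higher in 10 and lower in 2 (8 and 1 without corn oil 6 d replicate 1), against 7.05% and 8.33% of all genes. The 7 lower at 6 d became 6 without corn oil 6 d replicate 1 and 4 without CPA 6 d replicate 2. Pdia3 (probe set 1398788_at), a disulfide isomerase, was at 9.25, 9.92, 8.42, 8.85 and 9.15 in corn oil and at 8.44, 7.56 and 8.17 after CPA at 24 h. In the 6 d arrays it was at 8.81, 9.02 and 9.10 in corn oil and at 9.91, 9.79 and 9.86 after CPA. At 24 h CPA replicate 1 lay just above the lowest corn oil array, and at 6 d all CPA arrays were above corn oil. The effect went from -1.06 to 0.88, with an interaction of 1.94 (SE 0.33, limma adjusted p = 0.000256), or 1.85 without corn oil 6 d replicate 1. Pdia6 (-1.13 to 0.26), Calr, calreticulin (-0.78 to 0.08) and Hspa5, the chaperone BiP (-0.59 to 0.06), were transient. Ppp1r15a, which restores translation, was late and lower (-0.23 to -2.04).

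Of 29 secreted acute phase proteins 18 were lower and 2 higher at 24 h, and 10 were lower and 3 higher at 6 d. Over all genes 11.9% and 9.62% were lower at the same times. The interaction was called lower in 3 and higher in 10, against 8.33% and 7.05% of all genes, and the 10 became 7 without corn oil 6 d replicate 1 and 6 without CPA 24 h replicate 2 or CPA 6 d replicate 1. Lbp (probe set 1387868_at), which binds bacterial lipopolysaccharide, was at 5.25, 5.68, 5.84, 6.10 and 6.73 in corn oil and at 5.09, 5.37 and 4.82 after CPA at 24 h. By 6 d the level was 5.51, 5.99 and 6.05 in corn oil and 7.60, 6.97 and 7 after CPA. The 24 h groups overlapped by 1 array, and the 6 d groups did not. The effect went from -0.83 to 1.34, with an interaction of 2.17 (SE 0.39, limma adjusted p = 0.000438), or 2.00 without corn oil 6 d replicate 1. A2m, alpha-2-macroglobulin, went from -2.05 to 0.33 and Lcn2, lipocalin 2, from -0.40 to 1.22. All 15 coagulation factors were lower at 24 h and 10 were at 6 d, with 1 interaction call, Tfpi.

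Immediate early genes, the first to answer a stimulus, leaned the other way. Of 33 immediate early and heat shock genes 8 had a lower interaction and 1 a higher one, against 8.33% and 7.05% of all genes. Jun (probe set 1389528_s_at), of the AP-1 complex, was at 9.55, 8.88, 10.13, 8.57 and 9.30 in corn oil and at 9.86, 10.05 and 9.83 after CPA at 24 h. On the 6 d arrays it read 9.82, 9.98 and 9.66 in corn oil and 7.92, 8.17 and 8.37 after CPA. It overlapped at 24 h and was lower in all CPA arrays at 6 d (effect -1.66), with an interaction of -2.29 (SE 0.39, limma adjusted p = 2e-04), which was -2.29 without corn oil 6 d replicate 1 as well. Dusp1, a MAP kinase phosphatase, went from -0.99 to -2.53, and Junb and Zfp36 were late and lower. Dnajb1 and Hsph1, heat shock chaperones, were transient (1.10 to -0.22 and 1.06 to -0.23). Gadd45b, a stress gene, was transient as well (2.13 to -0.58), a call lost without corn oil 6 d replicate 1 (adjusted p = 0.0529).

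Other genes reversed outright. Ptgr1 (probe set 1388102_at), a reductase that inactivates prostaglandins, was at 8.50, 8.91, 8.56, 8.84 and 9.01 in corn oil and at 7.57, 6.55 and 7.08 after CPA at 24 h. The 6 d levels were 9.17, 9.56 and 9.86 in corn oil and 11.16, 11.58 and 11.44 after CPA. It was below corn oil in every CPA array at 24 h and above it at 6 d (-1.70 and 1.86, interaction 3.56, SE 0.33, limma adjusted p = 7.33e-08), and the interaction was 3.38 without corn oil 6 d replicate 1. Tusc3, an oligosaccharyltransferase subunit, went from -0.88 to 3.47. In the other direction Apoa4, an apolipoprotein, went from 0.48 to -1.97 and Mlxipl, the glucose sensor ChREBP, from 0.56 to -1.07.

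The genes that fell transiently were long. From the transcription start to the end of the gene in RefSeq (GRCr8), the median span was 104 kb in the transient lower genes, 86.5 kb in the attenuated lower and 60.5 kb in the genes lower at 24 h and higher at 6 d, against 22.3 kb over all genes and 16.5 kb in the transient higher genes. Of the transient lower genes 50% spanned over 100 kb, against 13.7% of all. Of the 609 genes between 200 and 500 kb, 34.3% were lower at 24 h and 10.2% at 6 d. Of the 1937 genes under 5 kb these shares were 7.12% and 9.34%. Without corn oil 6 d replicate 1, 33.7% of the 609 were lower at 24 h and 13.1% at 6 d, and the median span of the transient lower genes was 98.3 kb. That array itself lay low in these 609 genes, with a median of -0.119 from the corn oil 24 h mean, against 0.012 and 0.036 in its partners. The CPA arrays were at -0.244, -0.299 and -0.251 at 24 h and at -0.088, -0.113 and -0.147 at 6 d, so all of them were below the 24 h corn oil mean at both times.

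Esrrg (probe set 1394577_at), an orphan nuclear receptor of 617.8 kb, was at 6.11, 6.52, 6.05, 6.09 and 6.63 in corn oil and at 2.28, 1.84 and 1.61 after CPA at 24 h. At 6 d it was at 5.57, 6.46 and 6.24 in corn oil and at 6.26, 6.13 and 5.94 after CPA. It was below the array medians in all 3 CPA arrays at 24 h and was back within the corn oil range at 6 d. The effect was -4.37 (SE 0.23) and then 0.02 (SE 0.26), with an interaction of 4.40 (SE 0.34, limma adjusted p = 4.42e-09), or 4.14 without corn oil 6 d replicate 1. Asph, an aspartate hydroxylase of 212.6 kb, went from -4.10 to -0.32 and Pcca, a subunit of propionyl-CoA carboxylase of 340.3 kb, from -3.55 to -0.59. Dpyd, which breaks down pyrimidines and spans 865.9 kb, was attenuated, from -4.21 to -1.76.

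**Figure D4:**
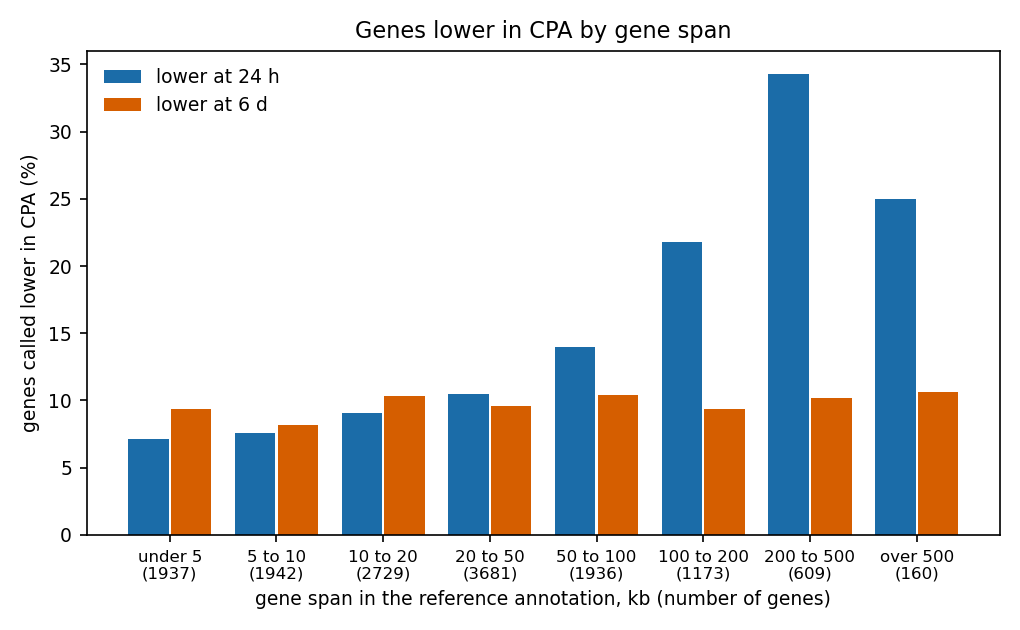
Percentage of genes called lower after CPA at 24 h and at 6 d (y axis) in bins of genomic span (x axis, kb), in all 14 arrays. At 24 h the share rose from 7.12% in the shortest bin to 34.3% and 25% in the longest bins, and at 6 d it ran from 8.19% to 10.6%.

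Markers of other liver cells were measured beside these results. The mean of 14 Kupffer cell and macrophage markers was at 5.27, 4.26, 5.92, 3.48 and 3.86 in corn oil and at 4.75, 4.60 and 3.23 after CPA at 24 h (two-sided exact permutation test, p = 0.607). After 6 d it was at 5.04, 5.26 and 4.88 in corn oil and at 6.41, 6.39 and 6.12 after CPA (exact permutation p = 0.1, the smallest that 3 against 3 can give). It was highest in the 6 d CPA arrays, with 4 of the 14 markers called higher and 1 lower there, and was 10.66 in corn oil arrays of the mesenchymal fraction. Over all genes 15.3% were higher and 9.62% lower at 6 d, and the interaction was higher in 7.05% and lower in 8.33%. The 4 became 2 without corn oil 6 d replicate 2 or CPA 6 d replicate 1, and 1 without corn oil 6 d replicate 3 or CPA 6 d replicate 2. Such counts of 14 lie below the share of all genes higher at 6 d. The interaction was called higher in 3 of the 14 (Adgre1, Cybb and Tyrobp), or in 1 when any single one was left out of corn oil 24 h replicates 1 and 3, CPA 24 h replicate 3, corn oil 6 d replicates 1 and 3 and CPA 6 d replicates 1 and 2. A count of 1 of 14 is about the share of all genes. A lower interaction was called in 1 marker, Lyz2, lysozyme (-0.88, limma adjusted p = 0.00193), with each array left out as well. In bulk RNA, more cells of a type and more RNA per cell cannot be told apart. With CO_Co as the 24 h control, or after quantile normalization, the 3 also became 1, and with array weights 5. In limma 0 of 17 sinusoidal endothelial markers had an interaction call, with 2 at an unadjusted p under 0.05, and 0 of 20 stellate cell markers, with 3. Leaving out corn oil 24 h replicate 1 or corn oil 6 d replicate 2 gave 1 lower call among the endothelial markers, and leaving out CPA 24 h replicate 3 gave 1 among the stellate cell markers. Of 10 cholangiocyte markers 1 was higher at 24 h and 3 at 6 d, and 2 had a higher interaction, with 0 lower in each case. Their mean was 3.10 ± 0.04 in corn oil and 3.34 ± 0.08 after CPA at 24 h (exact permutation p = 0.0179), near the array medians. At 6 d it was 3.20 ± 0.02 and 3.77 ± 0.11 (exact permutation p = 0.1). The list's median effect was 0.10 and 0.16, so the shift lay in some members.

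With the Kupffer and endothelial marker mean as a covariate, 2285 genes had an interaction call, and the interaction was 5.68 for Gstp1, 3.76 for Anxa2, 3.91 for Sox4 and 2.15 for Lgals3, all still called. Without the covariate these were 6.41, 4.25, 4.51 and 3.26. The part of other cells in the late genes was not tested. The levels in the mesenchymal fraction differed between these genes. Gstp1 averaged 11.93 in hepatocytes after CPA at 6 d, above the 10.58 to 11 of the 4 mesenchymal group means. Lgals3, at 7.23, 7.90 and 7.34 in those hepatocyte arrays, was below its mesenchymal group means. Of the 449 late higher genes, 213 were higher in CPA 6 d hepatocytes than in CPA 6 d mesenchymal cells.

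**Figure D5:**
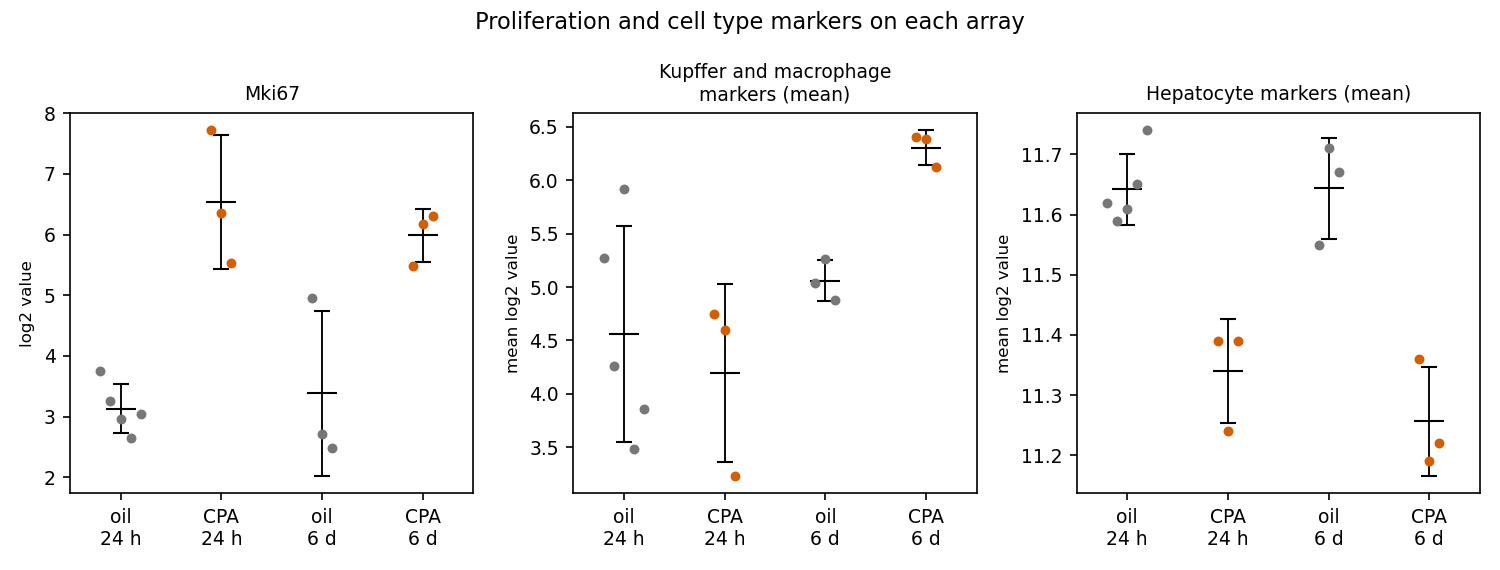
Log2 expression in each of the 14 arrays of Mki67, of the Kupffer cell and macrophage marker mean and of the hepatocyte marker mean, with 1 point per array and a bar at the group mean. Corn oil 6 d replicate 1 stood above its partners in Mki67 (4.95), and the macrophage mean was highest in the CPA 6 d arrays (6.12 to 6.41).

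The same contrast in the mesenchymal fraction was called in 76 genes (0.535%), 72 of them higher (0.506%) and 4 lower (0.0281%). There CPA changed 2.77% of genes at 24 h (2.41% higher) and 2.36% at 6 d (2.14% higher). The difference between fractions was called in 197 genes (1.39%), 115 of them higher in hepatocytes (0.809%) and 82 lower (0.577%), or in 141 without corn oil 6 d replicate 1. Mitosis genes rose later there: 14 of the 46 were higher at 24 h (median effect 0.47) and 40 at 6 d (2.29), with 24 interactions called higher and 0 lower. In mesenchymal cells Mki67 had an interaction of 2.71 (limma adjusted p = 0.00158), against -0.79 in hepatocytes, a difference of -3.50 (adjusted p = 0.0224). Of the 46 mitosis genes 11 had a lower interaction in hepatocytes than in mesenchymal cells, and of the 37 replication genes 8 did. Of the 36 ribosome genes 0 differed at the threshold in limma, with 13 at an unadjusted p under 0.05. Gstp1, Cyp3a2 and A1bg were chosen for their hepatocyte interaction, one term of this difference, so their differences describe them. For Gstp1 the interaction was 6.41 in hepatocytes and 0.54 in mesenchymal cells (adjusted p = 0.995), a difference of 5.87 (SE 0.80, adjusted p = 1.1e-05). For Cyp3a2 and A1bg no difference between fractions was called (0.80, adjusted p = 0.9, and -0.77, adjusted p = 0.917).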

How the data were processed

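The values were the log2 expression values deposited by the authors, made with RMA per the submitters' processing notes (version not given), which corrects background, normalises arrays to each other and summarises probes. RNA (250 ng per array) was hybridised to an Affymetrix rat expression array. Precision is limited by how many arrays there are. Of 31042 probe sets, 20826 had exactly 1 gene symbol, 436 several and 9780 none, and 99.7% of the first matched the RefSeq gene table by identifier. The brightest probe set stood for each of 14217 genes, and where a gene had several they may disagree.

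Groups came from the sample labels. R 4.3.3 and limma 3.58.1 fitted all 30 hepatocyte arrays with 9 group means and a term for labelled female sex, which cancels in these contrasts, with Benjamini-Hochberg adjustment across all 14217 genes. Calls used an adjusted p under 0.05. The fraction comparison used all 60 arrays and took them as independent. The labels do not say whether hepatocyte and mesenchymal arrays of the same number share an animal. Log2 differences understate changes of dim genes. In data simulated for the interaction over 14217 genes, 7, 27, 49 and 50 of 50 genes changed by 0.5, 1, 2 and 3 log2 units were recovered. Noise was independent between genes, and far fewer genes changed there than were called in the data. The adjusted threshold was therefore stricter in the simulation, and recovery in the data may differ.

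Named genes were, per class and direction, up to 8 with the largest effect whose CPA and corn oil arrays did not overlap, the 6 largest rises and falls of the interaction, up to 4 called members per list, and 11 fixed genes. Other list members were named with their values in view. Members and lists were chosen with earlier results of these data known. Replicate numbers were not used to pair the arrays in the main fit. Of 18 pairs of same-numbered arrays, 3 deviated together with r above 0.1, and r ran from -0.13 to 0.2. With so few arrays per group these values cannot show whether the numbers mark pairs. Promoters, spans and names came from RefSeq tables of GRCr8. Alternatives covered scaling, filters, controls, variance models, the replicate block, a marker covariate and each array left out.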

Additional observations from a re-analysis of the deposited data

Results flagged for a closer look

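In corn oil at 24 h, the highest or lowest of the 5 arrays stood far from the others in 3 of 31 sets of values tested, where chance gives about 1 in 20. The gap as a share of the range was 0.812 for Cyp3a2 (replicate 3 at 5.34), 0.711 for Akr1b7, and 0.8 for the mean of the platelet markers, against a critical value of 0.71.

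The 6 largest rises and 6 largest falls of the hepatocyte interaction were compared with mesenchymal cells, and 6 of these 12 genes differed in limma at an adjusted p under 0.05. Since they were chosen for the hepatocyte interaction, one term of that difference, the count is a description. Hepatocytes minus mesenchymal cells was 5.87 for Gstp1, 3.7 for Adam8, a membrane protease, 3.63 for Sox4, 2.81 for Esrrg, 2.17 for Defb1, a defensin, and -2.37 for Cux2.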

How the results depend on the processing

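The sign of the interaction was compared for 194 named genes under the alternatives that kept 1 value per gene. None of those called, in the main fit or in the alternative, changed sign. The balance of all interaction calls did change: 45.9% were higher in the deposited values and 55.5% after quantile normalization. Testing only genes with a mean of at least 4 gave 237 late higher genes, against 449 in the main fit. Late lower genes were 251, against 238. Quantile normalization gave 427 transient higher genes, against 700, and 45 attenuated higher genes, against 81. The lower genes of these classes went the other way, to 384 from 321 and to 53 from 38. At an adjusted p under 0.01 the interaction was called in 1110 genes and the change between CPA groups in 2409, with 546 transient, 21 attenuated, 38 growing, 409 late and 48 opposed genes. Requiring at least 2-fold as well left 903 interaction genes, 1260 at 24 h, 1182 at 6 d, 1032 between CPA groups, and 260 transient, 25 attenuated, 446 sustained, 31 growing, 334 late and 6 opposed genes. Array weights gave 10 calls between corn oil groups, 255 attenuated, 213 growing and 287 opposed genes. Corn oil calls were 6 with CO_Co as the 24 h control and 3 with it pooled. With the replicate block there were 1951 interaction calls, 3 between corn oil groups and 75 attenuated genes. The 14 arrays alone without corn oil 6 d replicate 1, a setting chosen after seeing the data, gave 56 attenuated genes.

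Leaving out each array in turn gave 1619 to 2158 interaction genes, 3763 to 4960 at 24 h, 2782 to 3566 at 6 d, 0 to 1 between corn oil groups, 2803 to 3678 between CPA groups, and 632 to 1018 transient, 58 to 143 attenuated, 1388 to 1804 sustained, 75 to 134 growing, 489 to 706 late and 109 to 179 opposed genes. Of 158 named genes with an interaction call, 115 kept it without each of the 14 arrays and 133 without corn oil 6 d replicate 1. The cause of these differences was not tested. With 3 arrays in most groups, changes near 1 log2 unit can be missed, and how often in these data was not measured. In the simulation, with far fewer changed genes, 27 of 50 such changes were recovered.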
